A study of Mus musculus with 2 samples.

Results

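The 8 genes *Tnxb*, *Eln*, *Bgn*, *Dcn*, *Lum*, *Fbn1*, *Sparc* and *Mfap5*, which encode matrix proteins of the dermis other than collagens, were followed through mouse skin by spatial transcriptomics. They were chosen by symbol and all 8 are among the 19465 genes of the deposited tables. The skin came from female SKH-1 mice, a hairless strain, aged 10 to 12 weeks. There were 4 groups: control skin described as normal, skin exposed to ultraviolet radiation (UVR), and UVR-exposed skin treated with either 0.1% retinol or 0.03% 9-cis HPR (HPR below). Each group had 1 section, so no spread between animals could be measured, no test was made, and every interval below covers counting error only. The control section shared its capture area with the UVR section, and the treated sections shared another, so treatment and capture area cannot be told apart. The labels place the groups as upper and lower. Here the section nearer the top of the image was taken as upper. Reading the spot grid, which runs the other way, would exchange control with UVR and retinol with HPR throughout. The dose of radiation, the vehicle and the time of sampling are not given in the sources used here.

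The dermis is held together by collagen fibres and by smaller amounts of other proteins, most of them secreted by fibroblasts. Tenascin-X (*Tnxb*) links collagen fibrils and its loss in people gives a lax, stretchable skin. Elastin (*Eln*) is the rubber-like core of elastic fibres, which form on a scaffold of fibrillin-1 microfibrils (*Fbn1*) to which microfibril-associated protein 5 (*Mfap5*) binds. Decorin (*Dcn*), lumican (*Lum*) and biglycan (*Bgn*) are small leucine-rich proteoglycans that bind collagen and regulate fibril growth. SPARC (*Sparc*) is a secreted collagen-binding matricellular protein. Chronic sun exposure is known to alter both the collagen and the elastic network of skin.

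The genes lie at separate places in the genome except for a neighbouring pair. On GRCm38.p6, the assembly behind the mm10 build used by the authors, *Tnxb* (ENSMUSG00000033327) spans chr17:34660453-34719815, *Eln* chr5:134702595-134747368, *Bgn* chrX:73483601-73495936 and *Sparc* chr11:55394159-55420080. *Dcn* (chr10:97479500-97518163) and *Lum* (chr10:97565501-97572703) sit next to each other, *Fbn1* spans chr2:125300594-125506485 and *Mfap5* chr6:122513584-122529290. RefSeq promoter windows were at hand for 4 of the 8 (*Tnxb*, *Bgn*, *Fbn1* and *Sparc*). The 250 bases before the start site are shown for *Tnxb*, whose level differed most between sections, and for *Sparc*, which differed less; capitals mark an AP-1 motif, TGANTCA.
Tnxb: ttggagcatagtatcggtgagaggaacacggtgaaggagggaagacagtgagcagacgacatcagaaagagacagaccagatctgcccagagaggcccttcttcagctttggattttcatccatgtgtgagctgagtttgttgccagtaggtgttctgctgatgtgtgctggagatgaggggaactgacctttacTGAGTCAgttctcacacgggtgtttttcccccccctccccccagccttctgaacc
Sparc: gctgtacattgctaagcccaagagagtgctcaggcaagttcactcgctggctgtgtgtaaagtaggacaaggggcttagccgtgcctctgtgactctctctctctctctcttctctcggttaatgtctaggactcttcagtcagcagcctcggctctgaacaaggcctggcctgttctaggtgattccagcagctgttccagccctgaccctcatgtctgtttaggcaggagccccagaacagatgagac
The *Tnxb* stretch is chr17:34670285-34670534 on the plus strand, and the *Sparc* stretch is chr11:55420081-55420330 on the minus strand. The *Tnxb* stretch lies inside the annotated span of the gene, which begins at 34660453. Its positions are therefore counted from the start site of that window and not from the start of the span. Whether the stretch acts as a promoter was not tested. Both strands were searched in windows of 300 bases that also held the 50 bases after the start site. *Tnxb* had 1 AP-1 motif, TGAGTCA, starting at -55 from the start site, and 1 retinoid receptor half-site, AGGTCA, on the other strand at -65. *Bgn*, *Fbn1* and *Sparc* had no match to AP-1, AGGTCA or TATAAA. Among 32851 mouse promoter windows, 7.81% held TGANTCA, 16.3% AGGTCA and 13.6% TATAAA. A match describes letters only.

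Sections differed in size and depth. Spots with at least 200 unique molecular identifiers (UMIs, single counted molecules) were kept: 339 in control, 647 in UVR, 544 in retinol-treated and 644 in HPR-treated skin, with 326095, 2558616, 1414976 and 1249928 UMIs. Both capture areas used 430 of the same spot barcodes, which belong to the slide design. Levels are CPM, a gene's UMIs scaled to a common total over the section or layer. They were compared between sections but not between genes, because probes per gene are not given in the sources used here. Clustering without the matrix genes gave 7 regions in 4 layers. The outer layer joined 3 regions, each mostly from different sections: region 3, mostly control, was led by *Krt77* and *Krt10*, region 2, mostly UVR, by genes that included *Krt6b*, and region 5, mostly treated skin, by *Alox8*, *Smox* and *Hrnr*. The median log2 fold of the keratinocyte markers over other spots was 0.85, 0.47 and -0.25 in these regions, and the 10 markers summed to 112000, 80800, 53400 and 59600 CPM in the outer layer of control, UVR, retinol-treated and HPR-treated skin. The subsurface layer beneath it was led by *Fa2h* and *Alox12e*. A middle layer was led by *Ctsz*, *Ctss* and *Col1a1*, and a muscle layer by *Myh4* and *Pvalb*. To be set apart from the outer layer, a region needed some marker list with a median log2 fold over other spots of 2 or more. The subsurface region passed narrowly, on sebaceous markers at 2.07. That fold decided its label and does not check it. At finer clusters (resolution 1.0) the region set apart by sebaceous markers held 166 spots, against 884 here. In the middle layer the median log2 fold was 3.73 for fibroblast, 4.26 for adipocyte and 4.24 for macrophage and dendritic markers, so it was not a fibroblast layer alone and is called by its place. The outer layer held 58.5%, 67.6%, 56.5% and 56.4% of the UMIs in the order control, UVR, retinol and HPR, and the middle layer 6.49%, 1.16%, 1.88% and 1.63%. A spot covers several cells, so fewer fibroblasts and less RNA per fibroblast cannot be told apart. A list of 10 fibroblast markers summed to between 9410 and 10800 CPM in the middle layer of the 4 sections. In the outer layer it summed to between 92.5 and 502 CPM. The middle layer was picked out by the fold of this same list. Its level there was therefore set in advance and does not check the dermal label of the members. The list includes the collagens *Col1a1*, *Col1a2*, *Col3a1*, *Col6a1* and *Col6a2*. *Tnxb* itself was among the leading genes of region 3, and 39.5% of its control UMIs lay in the outer layer. The defining marker *Pdgfra* was at 0 in control skin.

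The members were sparse. *Tnxb* had 644 UMIs over all kept spots, *Sparc* 220, *Eln* 190, *Bgn* 105, *Dcn* 87, *Fbn1* 26, *Lum* 11 and *Mfap5* 4. Of the 8, 5 had the 20 UMIs over both sections asked for in a count of folds (*Tnxb*, *Eln*, *Bgn*, *Dcn* and *Sparc*); *Lum*, *Fbn1* and *Mfap5* did not. All 5 were at least 2-fold lower in UVR than in control skin, where 17.4% of 5898 genes were. All 5 were also at least 2-fold lower in retinol-treated (18.9% of genes) and in HPR-treated skin (17.3%), comparisons that share the control section. These are shares of a section's own UMIs. Counted instead per kept spot, the median of all well-counted genes shifted from 0.09 to 2.13 on the log2 scale between control and UVR, since UVR spots were deeper, and the direction for *Eln*, *Dcn* and *Sparc* turned, as given below; *Eln* and *Sparc* also turned in retinol-treated over control skin.

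**Figure D1:**
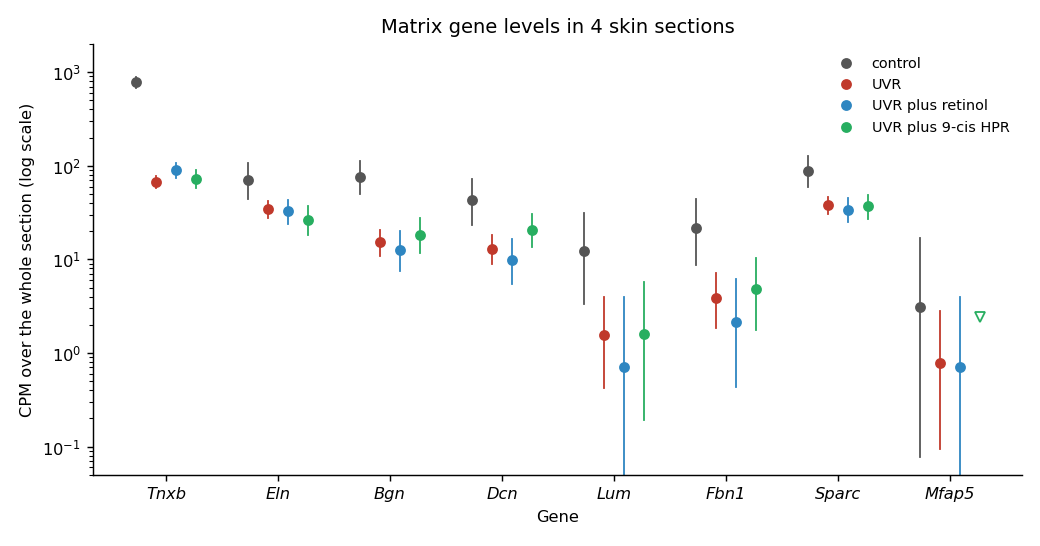
Level of each of the 8 genes over the whole section, in CPM on a log scale; points are single sections, lines are exact 95% counting intervals (cut at the lower edge of the plot), and an open triangle marks 0 UMIs at the level of 3 counts. *Tnxb* in control skin, at 776 CPM, stands above the other 3 sections, which lie between 67.6 and 89.8 CPM.

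Tenascin-X showed the widest difference. *Tnxb* had 253 UMIs in control skin (776 CPM), 173 in UVR (67.6 CPM), 127 in retinol-treated (89.8 CPM) and 91 in HPR-treated skin (72.8 CPM). Control skin was high and the 3 irradiated sections were low and close together. UVR skin was 11.5-fold lower than control (95% interval 9.42 to 14.0), retinol-treated skin 8.64-fold and HPR-treated skin 10.7-fold. No single spot made the difference: *Tnxb* was found in 150 of 339 control spots with at most 6 UMIs in a spot, and in 124 of 647 UVR spots with at most 8. Per 100 kept spots the counts were 74.6 in control, 26.7 in UVR, 23.3 in retinol-treated and 14.1 in HPR-treated skin, which keeps the direction at a smaller size.

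The *Tnxb* difference depended on the layer. In the outer layer control skin had 524 CPM (100 UMIs), and UVR, retinol and HPR sections had 8.09, 7.50 and 8.51 CPM (14, 6 and 6 UMIs). The ratio of UVR to control there was 0.0155 (0.00815 to 0.0272), a log2 ratio of -6.02 that other clusterings put between -4.87 and -5.17. Per 100 outer spots the counts were 86.2 in control and 7.53 in UVR. Different clusters held most of the outer layer: 112 of 116 control spots were in region 3, 157 of 186 UVR spots in region 2, and 113 of 115 retinol and 140 of 146 HPR spots in region 5. Their median depths were 1263, 7677, 7002 and 4479.5 UMIs in the order control, UVR, retinol and HPR. Fibroblast markers in the outer layer summed to 498, 92.5, 251 and 502 CPM in that order, and their part in the *Tnxb* values was not tested. In the subsurface layer control skin had 1410 CPM against 104, 73.9 and 78.5 CPM, a ratio of 0.0733 (0.0512 to 0.104) for UVR. Deeper, the irradiated sections came closer to control. In the middle layer, with 6 UMIs for HPR, they lay further from one another. In the middle layer the levels were 1610 CPM in control, 774 in UVR, 1160 in retinol-treated and 294 in HPR-treated skin, and UVR over control was 0.482 (0.271 to 0.842). In the muscle layer they were 406, 271, 479 and 401 CPM, and the ratio of 0.668 (0.394 to 1.20) was within counting error. The muscle layer held 6.72% of the *Tnxb* UMIs of control skin and 49.7%, 43.3% and 51.6% of those in UVR, retinol-treated and HPR-treated skin. Outer-layer *Tnxb* also passed 2-fold lower where 15.1% of 4194 genes did, and it was the only member with enough UMIs there.

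**Figure D2:**
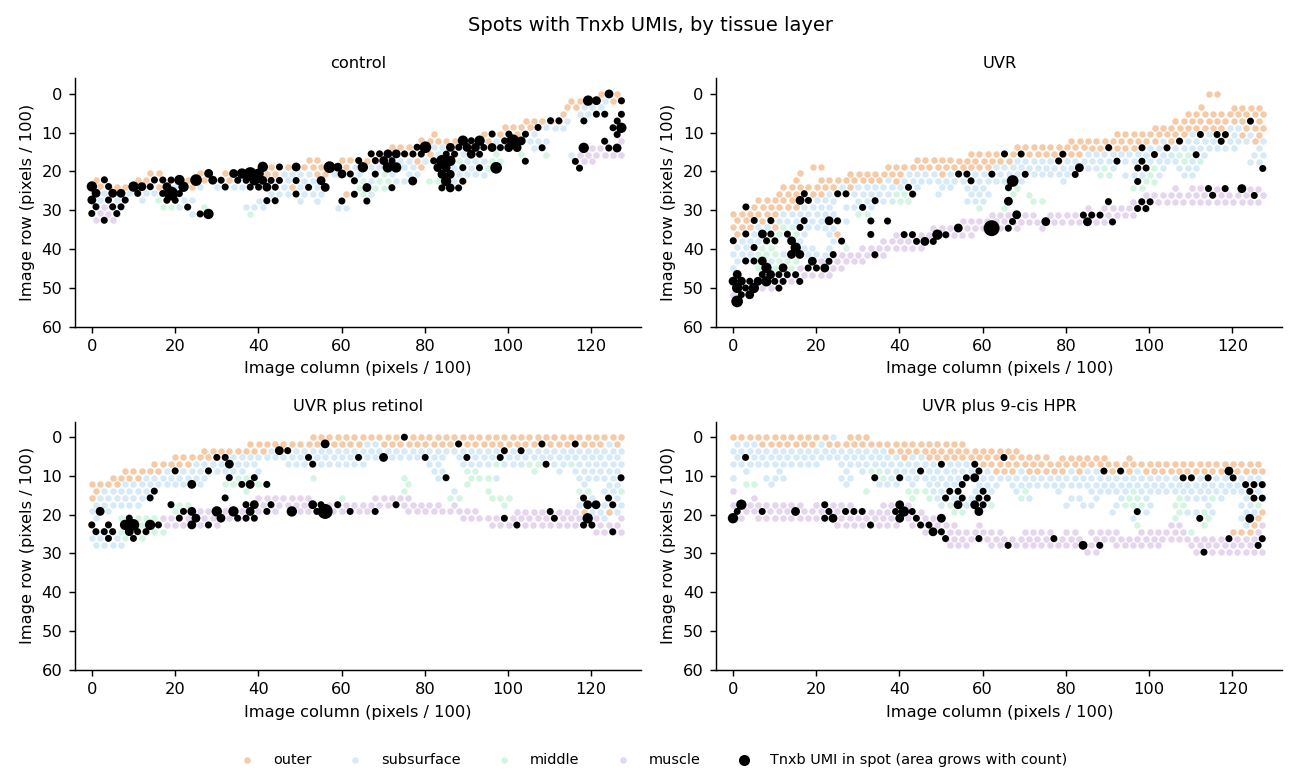
Kept spots of each section at their image position (pixels divided by 100, from the first spot), coloured by layer, with a black dot on each spot that holds *Tnxb* UMIs (dot area grows with the count). Dots run along the surface strip in control skin, where 100 of 253 UMIs are in the outer layer, and lie mostly beneath it in the 3 irradiated sections.

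Distance from the outer layer gave a like picture without the inner clusters, but it still rests on the outer ones. The muscle layer lay at a median of 4.49, 7.13, 7.58 and 8.71 spacings in control, UVR, retinol-treated and HPR-treated skin. The same distance can therefore hold different tissue. Spots up to 2 spacings below the outer layer had 1570 CPM of *Tnxb* in control skin and 76.9, 74.5 and 52.2 CPM in UVR, retinol-treated and HPR-treated skin. Beyond 4 spacings control skin had 280 CPM and the others 304, 636 and 447 CPM. Most spots there were of the muscle layer: 15 of 19, 158 of 194, 111 of 177 and 170 of 229 in the same order. So control skin was highest near the surface and was not highest at depth, where it had only 19 spots and 8 *Tnxb* UMIs. Marker lists also differed between sections in the subsurface layer, though not all in step with *Tnxb*. The 8 sebaceous markers summed to 4600 CPM in the subsurface layer of control skin (7 of 8 detected) against 419, 587 and 160 CPM (6, 7 and 5 of 8), with *Awat2* at 0 in all 4. Fibroblast markers there summed to 4380, 1290, 1370 and 3220 CPM, 9, 9, 9 and 10 of 10 detected. *Tnxb* there was at 78.5 CPM in HPR-treated and 1410 CPM in control skin. The fibroblast list includes collagens, so its sum cannot separate fibroblast content from collagen level. Adipocyte markers there summed to 513, 49.8, 50.7 and 71.2 CPM (7, 5, 7 and 4 of 8 detected). Macrophage and dendritic markers there summed to 1340, 305, 342 and 498 CPM (8, 8, 8 and 7 of 10 detected), with *Lyz2* at 0 in all 4. Keratinocyte markers went the other way, at 29800, 58000, 37400 and 39200 CPM (9, 10, 10 and 10 of 10 detected). The part of these in the *Tnxb* result was not tested.

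**Figure D3:**
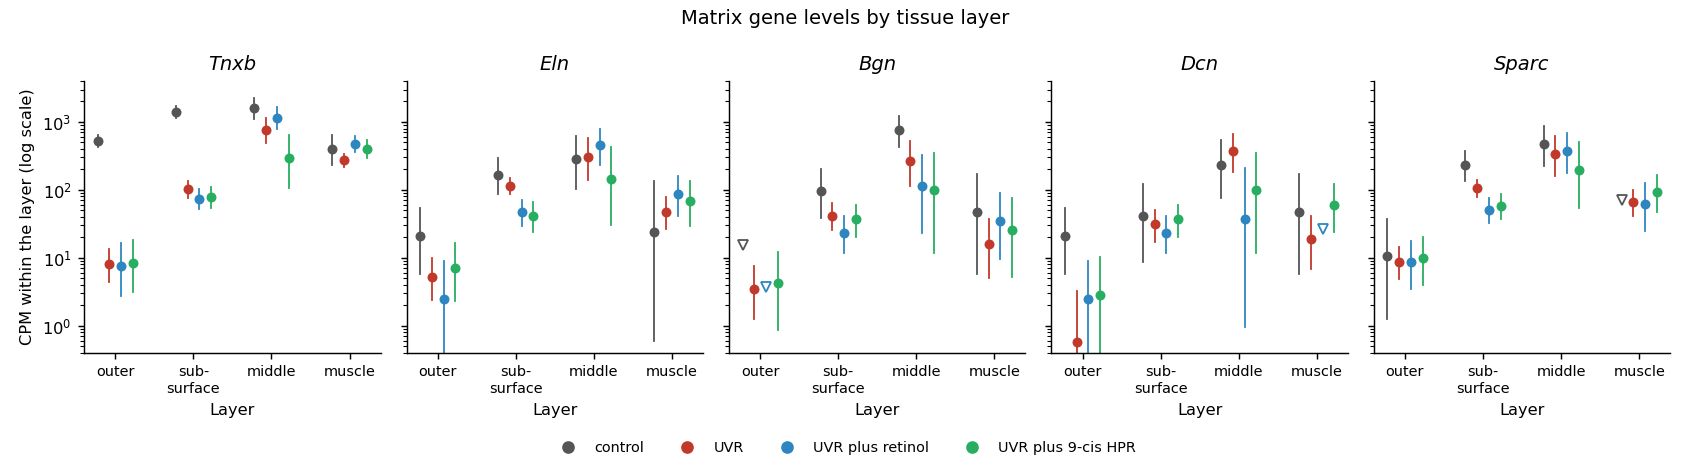
CPM within each of 4 layers (log scale) for the 5 best-counted genes; points are single sections, lines exact 95% counting intervals (cut at the lower edge), and open triangles mark 0 UMIs at the level of 3 counts. *Tnxb* separates control from the other sections in the outer and subsurface layers. In the muscle layer, with values of 271 to 479 CPM, the control interval of 236 to 650 CPM overlaps those of the others. The muscle intervals of UVR (217 to 335 CPM) and retinol-treated skin (361 to 624 CPM) do not overlap.

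The elastic fibre genes differed less. *Eln* had 23 UMIs in control (70.5 CPM), 88 in UVR (34.4 CPM), 46 in retinol-treated (32.5 CPM) and 33 in HPR-treated skin (26.4 CPM). It was 2.05-fold lower in UVR than in control as a share of UMIs (1.24 to 3.28), but higher per 100 spots, at 13.6 against 6.78. Within single layers every interval included 1. UVR over control was 0.248 (0.0693 to 1.10) in the outer layer, from 4 control and 9 UVR UMIs. In the subsurface layer, which held 52.2% of control and 62.5% of UVR *Eln* UMIs, it was 0.686 (0.363 to 1.41). It was 1.07 (0.340 to 3.65) in the middle and 1.98 (0.305 to 83.4) in the muscle layer, where control had 1 UMI. *Fbn1* had 7, 10, 3 and 6 UMIs in the same order of sections, under the 20 UMIs asked for in a count of folds. By share it was 5.49-fold lower in UVR (1.77 to 16.0). Per 100 spots its values were 2.06 in control and 1.55 in UVR. *Mfap5* had 1, 2, 1 and 0 UMIs, too few for any comparison.

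Among the small proteoglycans, *Bgn* had 25 UMIs in control (76.7 CPM), 39 in UVR (15.2 CPM), 18 in retinol-treated (12.7 CPM) and 23 in HPR-treated skin (18.4 CPM). Control was high and the irradiated sections overlapped one another. UVR over control was 5.03-fold lower (2.92 to 8.52), and per 100 spots the values were 7.37 and 6.03. With 4 layers weighted alike its log2 ratio moved from -2.33 to -1.25. Of the control UMIs, 16 of 25 lay in the middle layer, at 756 CPM against 269 CPM in UVR, a ratio of 0.356 (0.132 to 0.882). *Dcn* had 14 UMIs in control (42.9 CPM), 33 in UVR (12.9 CPM), 14 in retinol-treated (9.89 CPM) and 26 in HPR-treated skin (20.8 CPM). It was 3.33-fold lower in UVR (1.65 to 6.39) by share, but higher per 100 spots (5.10 against 4.13). The middle layer gave 236 CPM in control and 370 in UVR, within counting error. *Lum* had 4, 4, 1 and 2 UMIs.

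*Sparc* had 29 UMIs in control (88.9 CPM), 97 in UVR (37.9 CPM), 48 in retinol-treated (33.9 CPM) and 46 in HPR-treated skin (36.8 CPM). The 3 irradiated sections were alike within their intervals, and all were below control. UVR was 2.35-fold lower than control (1.49 to 3.58) by share, higher per 100 spots (15.0 against 8.55), and at a log2 ratio of 0.11 once 3 layers were weighted alike. On the left side of the image its log2 ratio was -0.33, against -1.23 over the section. In the subsurface layer the levels were 236, 106, 50.7 and 58.9 CPM, and UVR over control was 0.449 (0.255 to 0.829), which per spot also turned. In the subsurface layer, 3 of the 4 members with enough UMIs were at least 2-fold lower in UVR, where 15.5% of genes were, and in subsurface and middle layers together 3 of 5, where 16.5% were.

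Within ranges of spot depth, *Tnxb* behaved unlike *Eln* and *Sparc*. Spots of like depth need not be of like tissue. Median depth of outer spots was 1263 UMIs in control and 7677 in UVR skin, and of muscle spots 769 and 1676. The part of layer in the ratios below was not tested. Shallow spots had higher shares of all 3 genes: in control skin *Tnxb* was at 2470 CPM in spots of 200 to 349 UMIs and at 349 CPM in spots of 1500 or more. Control skin had 65 spots of 1500 or more and UVR skin 338. Within each range of depth *Tnxb* was still lower in UVR, at ratios of 0.324 (200 to 349 UMIs), 0.556 (350 to 699), 0.383 (700 to 1499) and 0.0968 (1500 or more), and all 4 intervals lay below 1. In spots under 200 UMIs the ratio was 0.679 (0.417 to 1.11). *Eln* was higher in UVR in all 5 ranges, at ratios between 1.59 and 2.48, with every interval including 1. *Sparc* was higher in 4 of 5 ranges, between 1.10 and 2.48, and at 0.678 in spots of 200 to 349 UMIs, again with every interval including 1. *Bgn* and *Dcn* lay on both sides of 1, with intervals that included it. The last range has no upper limit, and UVR spots in it were deeper: 338 spots held 2364811 UMIs, against 180273 in 65 control spots.

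**Figure D4:**
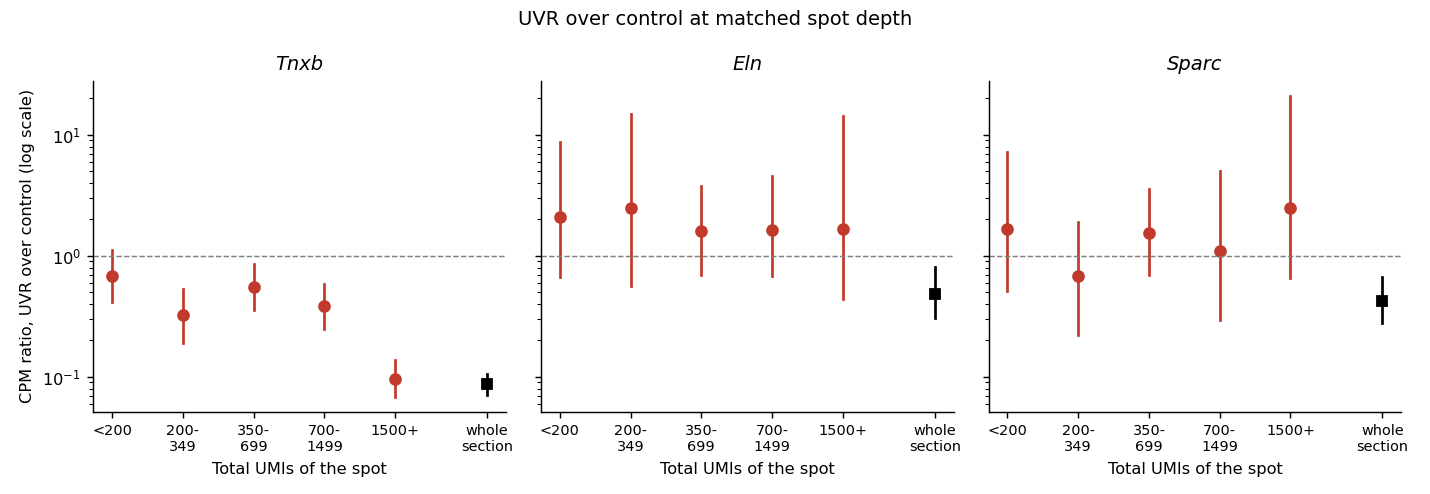
CPM ratio of UVR over control skin (log scale) within ranges of total UMIs per spot (red circles) and over the whole section (black squares), with exact 95% counting intervals; the dashed line is a ratio of 1. *Tnxb* stays below 1 in all ranges, while *Eln* lies between 1.59 and 2.48 within ranges and at 0.488 over the section.

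Over the whole section the 5 members counted lay within 2-fold of UVR skin in both treated sections. None was 2-fold lower (13.3% of 6445 genes were) or 2-fold higher (6.31%) with retinol, and none was 2-fold lower (14.4% of 6373 genes) or higher (5.93%) with HPR. *Tnxb* was 1.33-fold higher with retinol than in UVR skin (1.05 to 1.68) by share, and lower per spot (23.3 against 26.7 per 100). With HPR no member's interval excluded 1; *Dcn* was at 1.61 (0.926 to 2.78). The 2 retinoids were applied at different strengths, so their values stand side by side only. Between them, *Dcn* was at 9.89 CPM with retinol and 20.8 CPM with HPR, a ratio of 2.10 (1.06 to 4.36), and it was the 1 member of 5 at least 2-fold higher (3.79% of 5306 genes were); none was 2-fold lower (4.54%).

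Within the subsurface layer both treated sections had less *Eln* and *Sparc* than UVR skin. *Eln* was at 114 CPM in UVR (55 UMIs), 46.5 CPM with retinol (22 UMIs) and 41.7 CPM with HPR (17 UMIs). The ratios to UVR were 0.407 (0.236 to 0.679) and 0.366 (0.199 to 0.640). *Sparc* was at 106 CPM in UVR, with ratios of 0.479 (0.282 to 0.793) for retinol and 0.557 (0.328 to 0.921) for HPR. These comparisons share the UVR section. Their direction stayed lower under each alternative run, including counts per spot and the exchanged reading of upper and lower, although *Eln* with HPR moved from a log2 ratio of -1.45 to -0.59 with finer clusters. Ranges of spot depth over the whole section again need not match tissue. There *Eln* in HPR over UVR lay between 0.289 and 0.479 in the 5 ranges, with 3 of 5 intervals below 1. In retinol over UVR it lay between 0.415 and 1.35, with 1 of 5 below 1. *Sparc* lay between 0.0965 and 1.01 with HPR (3 of 5 below 1) and between 0.387 and 1.22 with retinol (1 of 5). So the lower *Eln* with HPR was found in each range, and the other 3 pairs lay on both sides of 1. In the middle layer *Tnxb* was at 774 CPM in UVR and 294 CPM with HPR (6 UMIs), a ratio of 0.380 (0.126 to 0.959). In the muscle layer *Tnxb* was higher than in UVR with retinol, at 1.77 (1.24 to 2.51), and with HPR, at 1.48 (1.01 to 2.13), though both were lower per spot. Different clusters held the muscle layer: regions 0 and 4 had 124 and 44 spots in UVR, 55 and 79 in retinol-treated and 8 and 186 in HPR-treated skin. Muscle markers there summed to 273000, 214000 and 129000 CPM and fibroblast markers to 442, 1070 and 2020 CPM in the same order. The fibroblast list includes collagen genes, so its sum does not measure fibroblast content apart from collagen level. The part of both lists in the *Tnxb* values was not tested.

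The other matrix genes fell into 6 lists of 78 genes, of which those with 20 UMIs over both sections were counted past 1.5-fold. In UVR over control, 6 of 7 elastic fibre genes were lower and none higher (median log2 ratio -1.31), 8 of 9 collagens were lower (-1.60), and 9 of 11 matricellular and adhesive genes were lower (-1.36). The members had a median of -1.73 and all genes of -0.10, with 29.6% of all genes lower and 22.3% higher. Per kept spot the sign of these medians turned, to 0.73 for the elastic fibre genes, 0.44 for the collagens, 0.68 for the matricellular genes and 0.30 for the members. All genes moved with that scaling, to a median of 1.94, and on both scales these 4 medians lay below that of all genes. *Col1a1*, a chain of the main dermal collagen, was 5.51-fold lower, *Col3a1* 3.87-fold, and *Loxl1*, an enzyme that crosslinks elastin, 2.04-fold. *Fbln2*, a fibulin of elastic fibres, was at a ratio of 0.846 (0.585 to 1.26). Among the proteases and inhibitors 6 of 8 were lower and 2 higher: *Adamts1* at 4.91 (1.31 to 41.2, from 2 UMIs in control) and *Bmp1*, a procollagen-processing protease, at 2.27 (0.937 to 7.16). In the middle layer, 4 of 4 collagens counted lay within 1.5-fold (median 0.03). Of the members, *Tnxb* and *Bgn* were lower there in UVR. *Sparc* was at 473 CPM in control and 337 in UVR, *Eln* at 284 and 303, and *Dcn* at 236 and 370. Intervals of *Sparc*, *Eln* and *Dcn* overlapped between both sections. The list that picked out this layer includes *Col1a1*, *Col1a2* and *Col3a1*, so collagen levels there are not an independent reference.

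With HPR the collagens counted were further above UVR skin than the 5 members counted. All 9 collagens were higher by at least 1.5-fold (median log2 ratio 1.68), where 15.0% of all genes were higher and 28.3% lower, for example *Col3a1* at 3.98 (3.43 to 4.63) and *Col1a2* at 3.37 (3.08 to 3.70). Elastic fibre genes were higher in 6 of 9 and lower in 1 (median 0.79), with *Loxl1* at 2.33 (1.86 to 2.91), *Fbln5* at 5.20 (2.66 to 10.8) and *Fbln2* at 0.925 (0.722 to 1.18). Of the members 1 of 5 was higher (*Dcn*, as the collagens) and none lower, with a median of 0.11 against -0.15 over all genes. In subsurface and middle layers together, 7 of 9 collagens were higher (median 0.70), where 11.1% of all genes were, and 3 of 5 members were lower and none higher (median -0.68, against -0.20 over all genes), where 29.7% of all genes were lower. With retinol, 7 of 9 collagens were higher over the whole section (median 1.15) and 0 of 5 members (median -0.16), where 16.2% of all genes were. Per kept spot the collagens' medians were 0.66 for HPR and 0.54 for retinol, above those of all genes, -1.18 and -0.71. The members lay near all genes on that scale, at -0.92 and -0.76: 4 of 5 were at least 1.5-fold lower in each, where 79.9% of all genes were with HPR and 57.2% with retinol. The elastic fibre genes turned to -0.23 with HPR.

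**Figure D5:**
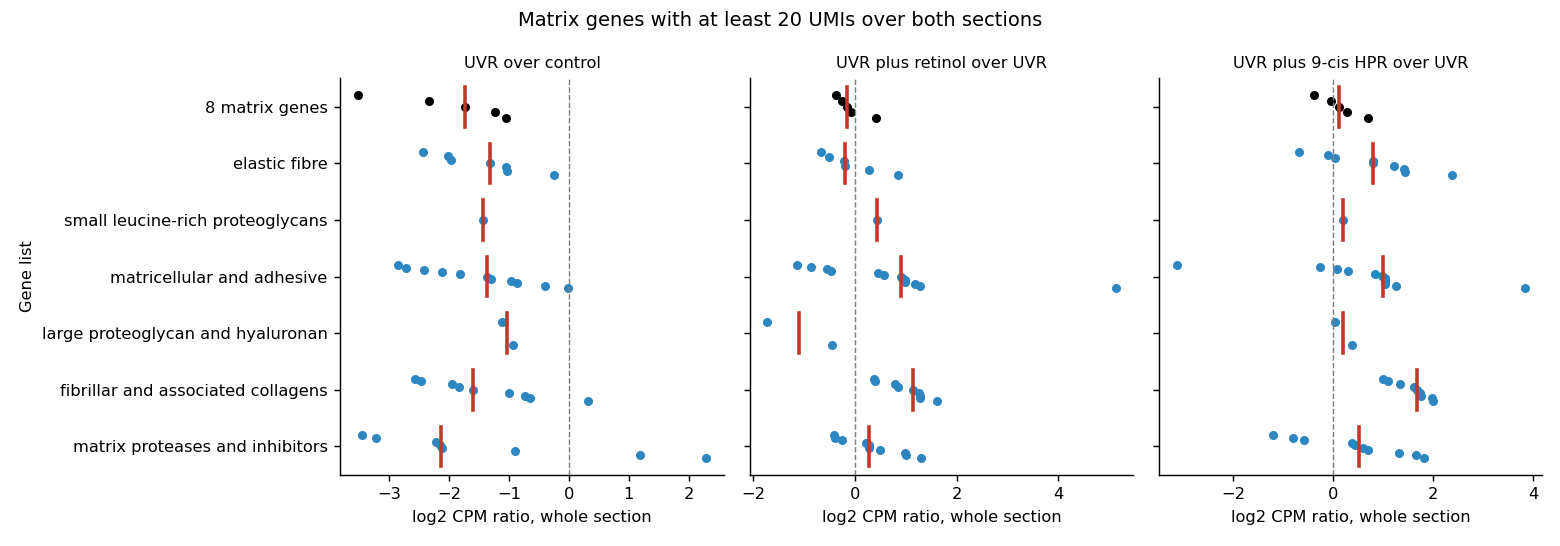
log2 ratio of whole-section CPM for every gene with at least 20 UMIs over both sections, in the 8 matrix genes (black) and 6 lists of other matrix genes (blue); red bars are medians. With HPR over UVR the collagens centre at 1.68 and the matrix genes at 0.11.

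Across 12 combinations of section and layer, leaving out the subsurface, the genes whose profile was most like that of *Tnxb* were *Syngr1* (r = 0.96), *Eid1* (0.94) and *Tsc22d3* (0.92), among 2381 genes. For *Eln* they were *Selenop* (0.97), *Fbln2* (0.96) and *Npr1* (0.96), for *Sparc* *Col6a3* (0.95), *Dtx4* (0.95) and *Cxcl14* (0.94), and for *Bgn* *Gpr153* (0.95), *Loxl1* (0.94) and *Psap* (0.93). These correlations are across layers that share sections and depth, and are a description. Within sections, members were paired over subsurface and middle spots where both genes were found in at least 10 spots. The 36 values, with a pair counted once per section, lay between -0.09 and 0.12 (median 0.04). That is too weak to read in such sparse counts. Rarer pairs, left out, reached 0.38 (*Lum* and *Fbn1* in control skin, from 2 shared spots).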

How the data were processed

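Skin was profiled with a probe-based Visium kit, per the labels' protocols. The authors deposited raw UMI counts per gene and spot. The submitters' processing notes name Space Ranger 2.0.0, Seurat 4.1.0 and the mm10 build. Spots with at least 200 UMIs were kept, and counts were summed per section or layer and divided by the total to give CPM, with no pseudocount. The 95% interval of a ratio is exact (Clopper-Pearson) and treats the UMIs of a gene as divided binomially between both sections. A count of 0 was set to 3 counts, giving a bound. Layers came from Leiden clustering (resolution 0.5, 2000 variable genes without the matrix genes, 20 components, 15 neighbours) in scanpy 1.11.5 with Python 3.11.15. The calculation was tested on simulated counts. The members and lists were chosen with earlier results of these data known. The named genes were the 8 members, the 2 highest and 2 lowest of each list with at least 100 UMIs, and 3 of most similar profile. *Adamts1*, *Bmp1* (in UVR over control) and *Fbln5* were chosen after their values were seen. Alternatives covered scaling, spot and gene minimums, thinning, clustering, image sides, layer weighting and the reading of upper and lower.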

Additional observations from a re-analysis of the deposited data

How the results depend on the processing

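Over the whole section, *Tnxb* in UVR over control had a log2 ratio of -3.52. It was -1.48 per spot, -3.05 on the left and -4.21 on the right image side, -2.68 with 3 and -3.02 with 4 layers weighted alike, and -3.81 after thinning to equal totals. The per-spot and 4-layer settings and the ranges of spot depth were added after seeing the data.

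Reading the spot grid exchanges the groups and turned 22 values. UVR over control, whole section, became 3.52 for *Tnxb*, 1.04 for *Eln*, 2.33 for *Bgn*, 1.73 for *Dcn*, 2.97 for *Lum*, 2.46 for *Fbn1* and 1.23 for *Sparc*. By layer it became 6.02 (outer), 3.77 (subsurface) and 1.05 (middle) for *Tnxb*, 1.49 for *Bgn* in the middle and 1.16 for *Sparc* in the subsurface layer. Retinol over UVR for *Tnxb* became -3.41 (whole) and -0.02 (muscle), and HPR over retinol -1.07 for *Dcn* (whole) and 1.99 for *Tnxb* (middle). Retinol over control became 0.11 for *Tnxb* (0.07 in the outer layer), 0.27 for *Bgn* and 0.69 for *Dcn*, and HPR over control 0.41 for *Tnxb* (0.59 in the middle).

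Counting per spot turned 10 values. UVR over control became 1.00 for *Eln*, 0.30 for *Dcn* and 0.81 for *Sparc* (0.97 in the subsurface layer). Retinol over UVR for *Tnxb* became -0.20 (-0.32 in muscle), and HPR over UVR in muscle -1.08. Retinol over control became 0.32 for *Eln* (0.30 in the subsurface layer) and 0.04 for *Sparc*. With 3 layers weighted alike, *Sparc* became 0.11 in UVR and 0.08 in retinol over control, and *Eln* 0.14 in the latter, where the left side gave 0.11. The cause was not tested for layer weights and sides. At finer clusters (resolution 1.0) *Tnxb* in the subsurface layer, retinol over UVR, became 1.13 and *Bgn*, UVR over control, 0.51. *Dcn* in UVR over control was -0.38 on the left side and -2.91 on the right.

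Counts of genes past 2-fold moved with the UMI minimum of 100, at 20 and 500 UMIs. In UVR over control, 312 higher became 760 and 98, and 191 lower became 1026 and 36. In retinol over UVR, 124 higher became 407 and 51, and 267 lower 858 and 71. In HPR over UVR, 96 higher became 378 and 30, and 259 lower 920 and 73. Fewer or more genes enter at each minimum. Median-of-ratios scaling, a pseudocount of 1 CPM, no spot minimum and totals without keratin and muscle genes moved none of the values they were run on beyond its counting interval. Depth limits *Lum*, *Fbn1* and *Mfap5*: the level of 3 counts, used for a count of 0, is 9.20 CPM in control and 1.17 CPM in UVR skin. No paired analysis was possible because each group has 1 section.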
